A study of Mus musculus with 3 samples.

Results

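MicroRNA hairpin arms were compared between mature sperm and adult uterus, both from mice of the outbred CD1 strain. A microRNA hairpin is the folded precursor from which a short RNA is cut on its 5′ side (5p arm) or its 3′ side (3p arm). Reads of 20 to 24 nt that matched an annotated hairpin in full and in sense were summed per arm, and an arm was kept if sperm or uterus had 100 or more of its reads. That rule kept 223 arms, of 846 with a read in either library and 2348 arms of the 1174 annotated hairpins. In 32 of the 223, arms of near-identical hairpins shared their reads and count as 1 arm. A testis library of the same series is given beside the pair where it bears on a value.

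Sperm came from the cauda epididymis, where they are stored before release, and a detergent solution on ice was used to lyse somatic cells among them. The uterus and testis came from adult mice. No genotype other than the strain and no number of animals is given in the sources used here. With 1 library per group there was no replicate, and groups were not tested against each other. Intervals in parentheses are 95% intervals that cover counting error only, not the spread between animals or libraries. PCR copies of 1 molecule are counted as separate reads, so the intervals can be too narrow even for counting error.

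MicroRNAs pair with messenger RNAs mainly through their seed, bases 2 to 8, and lower the stability or translation of those messages. The arm kept by the Argonaute protein gives most reads of a hairpin and the other arm is mostly degraded. The ends of the kept arm can be trimmed or extended by bases that the genome does not encode, so 1 arm appears as several forms. Hairpins that lie close together are often cut from a common transcript.

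The sequences that carry the comparison are shown first, from RefSeq (GRCm38.p6), 5′ to 3′ with the seed in capitals. RefSeq names were matched to 192 of the 223 arms. The X-linked microRNAs of spermatogenic cells had no read in uterus, and they include sets with a common seed, miR-465 and miR-743. Several arms shown (such as miR-425, miR-141 and miR-193b) were chosen after their values were seen.
miR-465a-5p: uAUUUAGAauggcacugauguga
miR-465b-5p: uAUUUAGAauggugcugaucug
miR-465c-5p: uAUUUAGAauggcgcugaucug
miR-465a-3p: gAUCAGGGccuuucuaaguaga
miR-743a-3p: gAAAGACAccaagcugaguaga
miR-743b-3p: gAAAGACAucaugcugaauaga
miR-741-3p: uGAGAGAUgccauucuauguaga
miR-878-5p: uAUCUAGUuggaugucaagaca
miR-881-3p: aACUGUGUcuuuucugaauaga
Other arms past 4-fold toward sperm follow, shown for the cluster or seed they share (miR-182 and miR-183, miR-34b and miR-34c, then miR-200c, miR-200b and miR-429, then miR-141 and miR-200a) or, for miR-184 and miR-425, for their ratio.
miR-182-5p: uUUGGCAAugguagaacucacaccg
miR-183-5p: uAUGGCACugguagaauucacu
miR-184-3p: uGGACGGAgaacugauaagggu
miR-34b-3p: aAUCACUAacuccacugccauc
miR-34c-3p: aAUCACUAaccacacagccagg
miR-200c-3p: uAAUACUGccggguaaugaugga
miR-200b-3p: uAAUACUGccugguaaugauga
miR-429-3p: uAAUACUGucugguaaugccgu
miR-141-3p: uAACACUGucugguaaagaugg
miR-200a-3p: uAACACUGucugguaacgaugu
miR-425-5p: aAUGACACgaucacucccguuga
Arms with large ratios toward uterus follow, with miR-193b for its shared seed with miR-193a.
miR-199a-3p: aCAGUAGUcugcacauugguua
miR-322-3p: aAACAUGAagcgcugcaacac
miR-503-5p: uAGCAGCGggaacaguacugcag
miR-193a-3p: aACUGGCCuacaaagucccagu
miR-193b-3p: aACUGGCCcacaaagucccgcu
miR-181d-5p: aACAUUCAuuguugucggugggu
The let-7 family, with 1 seed in 9 arms, held most uterus reads. Its extremes and its most abundant member are shown.
let-7c-5p: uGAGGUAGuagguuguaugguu
miR-98-5p: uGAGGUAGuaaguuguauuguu
let-7e-5p: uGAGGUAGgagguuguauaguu

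The libraries had like depth but unlike content. Sperm had 15690722 reads and uterus 15876066, of which 394287 (2.51%) and 10372607 (65.3%) lay on hairpin arms, beside 187269 of 23783785 (0.787%) in testis. The minimum of 100 reads therefore stood at 254 reads per 1000000 hairpin-arm reads in sperm and at 9.64 in uterus, and 3 reads at 7.61 and 0.289. The let-7 hairpins took 28.3% of the arm reads in sperm (28.2 to 28.5%) and 77.9% in uterus. Levels below are reads per 1000000 hairpin-arm reads, written RPM. Ratios are of sperm over uterus on that scale unless stated. Leaving let-7 out of the total divides every ratio by 3.24, a log2 shift of −1.70, and dividing by all library reads lowers each log2 ratio by 4.70. The TMM factors of edgeR shift it by −2.24 and the size factors of DESeq2 by −2.40.

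Most arms differed by a large factor, and the direction of many depended on the total they were divided by. At least 4-fold higher in sperm were 84 of the 223 arms (37.7% of those compared), and at least 4-fold higher in uterus were 46 (20.6%). Without let-7 in the total the counts were 52 (23.3%) and 89 (39.9%). With all library reads as the denominator they were 24 (10.8%) and 156 (70.0%). The median log2 ratio moved from 0.74 to −0.96 and −3.96. Under all 5 scalings, 38 arms were higher in sperm and 96 in uterus, and 89 changed direction. The arms that were at least 4-fold higher under every scaling numbered 24 in sperm and 46 in uterus. Every other scaling shifted all ratios toward uterus. The uterus counts of 96 and 46 are therefore those of the main scale and could not fall. They do not show that the uterus side depended less on the scaling than the sperm side.

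The minimum also treated the libraries unequally, since 112 of the kept arms had 100 or more reads in sperm, 201 in uterus and 90 in both. The 22 arms kept through sperm alone had to stand at least 26.3-fold higher there, so their place past 4-fold was fixed by the minimum. Of the 90 arms kept through both, 43 lay past 4-fold toward sperm and 8 toward uterus. These 2 counts are not on equal terms either, since 100 reads are 254 RPM in sperm and 9.64 in uterus. An arm of this set needed a far higher level to lie past 4-fold toward uterus than toward sperm. Of the 46 arms on the uterus side, 29 had 3 reads or fewer in sperm. The interval of the ratio lay beyond 4-fold for 24 of the 46 and for 76 of the 84 on the sperm side. Just inside the minimum, the higher library had 105 reads of miR-206-3p, 106 of miR-10a-3p, 111 of miR-34b-5p and 113 of miR-181a-1-3p. Just outside it stood miR-674-3p with 98, miR-193a-5p with 95, miR-150-5p with 92 and miR-341-3p with 89.

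**Figure D1:**
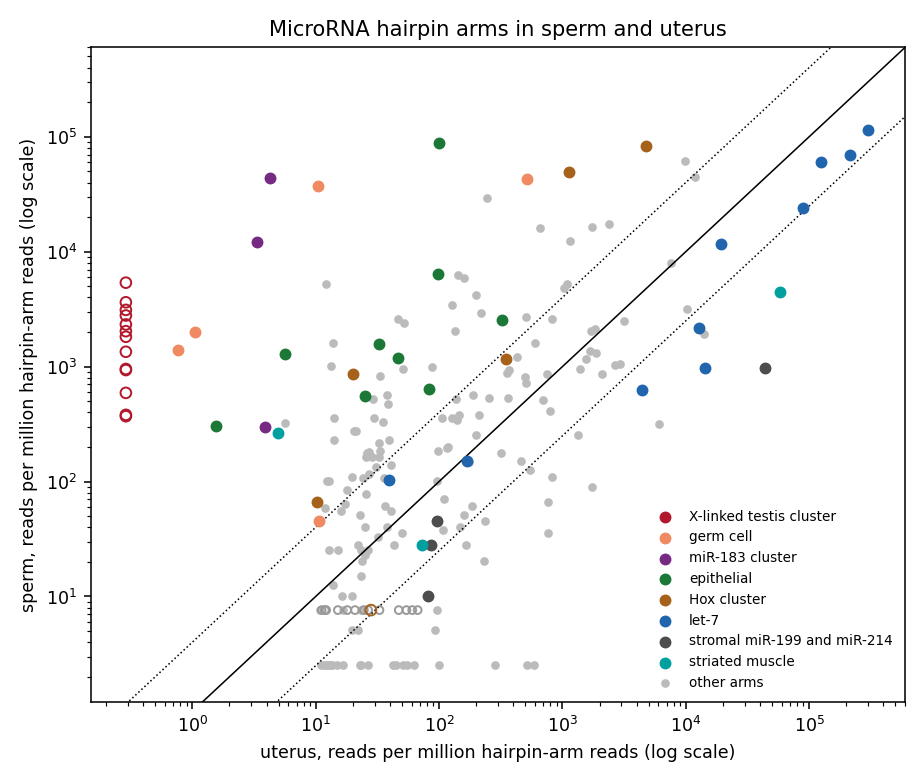
Each point is 1 arm, with its level in uterus (x) and sperm (y) in RPM on log axes; the solid line marks equal levels, the dotted lines 4-fold, and open points a library with 0 reads, drawn at the level of 3 reads. The X-linked arms stand at the left edge, above 370 RPM in sperm, and the let-7 arms other than let-7d-3p lie below the solid line.

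The most abundant arms of the libraries overlapped little outside let-7. The 10 leading arms held 65.7% of arm reads in sperm and 89.0% in uterus, and 3 were in both sets, let-7c-5p, let-7f-5p and let-7a-5p. The leading arms of sperm were let-7c-5p with 11.5%, miR-200c-3p with 8.77%, miR-10a-5p with 8.30%, let-7f-5p with 6.88% and miR-21a-5p with 6.16%. Those of uterus were let-7c-5p with 29.9%, let-7f-5p at 21.6%, let-7a-5p at 12.4%, let-7b-5p at 8.84% and miR-1a-3p at 5.76%. The 84 arms on the sperm side together held 61.4% of arm reads in sperm and 2.78% in uterus. The 46 on the uterus side held 1.23% in sperm and 16.2% in uterus, and 9 of these 46 exceeded 1000 RPM in uterus.

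X-linked germ cell microRNAs gave the largest values toward sperm, as bounds against 0 reads in uterus. Among arms with reads in both libraries, miR-182-5p, described further below, had the largest ratio, at log2 13.34. The X-linked list comes from a fast-evolving cluster active in spermatogenic cells, on the minus strand of chromosome X from 66776757 to 66839125 (GRCm38), where the annotation places 19 hairpins. Its 13 kept arms were the only kept arms with 0 reads in uterus. They passed the minimum through sperm alone, so each had to lie past 4-fold. The list had 10356 reads in sperm (2.63% of arm reads), 0 in uterus and 6072 in testis (3.24%).

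miR-465a-3p led the cluster with 2120 reads in sperm, 0 in uterus and 418 in testis, at least 18590.5-fold higher in sperm than the 3 reads that a count of 0 allows. Its reads match 5 hairpins of the cluster. miR-465a-5p, from the 5p arm of 1 of these, Mir465, had 1431, 0 and 208. miR-880-3p was the lowest with 146, 0 and 197, at least 1280.3-fold higher. Both arms of the miR-465 hairpins were thus present in sperm, and the list split into 6 arms from the 5p side and 7 from the 3p side.

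In RPM, 6 of the 13 stood higher in sperm than in testis and 7 the other way. miR-878-5p had 2785 RPM in sperm and 278 in testis, and miR-881-3p 1818 and 6483. On chromosome X as a whole 31 arms were kept, of which 14 exceeded 4-fold on the sperm side and 5 on the uterus side. Outside the cluster the 18 others gave 1 and 5.

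The other germ cell list holds miR-34b, miR-34c and miR-449, which serve in meiosis and sperm formation, with miR-184 and miR-202. Its 5 kept arms were all at least 4-fold higher in sperm, beside 37.7% of all arms, but 2 of them passed the minimum through sperm alone. With all library reads as the denominator 3 were past 4-fold toward sperm and 1 toward uterus. miR-184-3p, a microRNA of testis and several epithelia, had 14839 reads in sperm, 108 in uterus and 556 in testis. Its level of 37635 RPM in sperm was 3615 times that in uterus (2992 to 4409), and testis stood between them at 2969. miR-34c-5p, the leading arm of testis, had 16774 reads in sperm, 5311 in uterus and 83730 in testis. The ratio of sperm to uterus was 83.1 (80.6 to 85.7), with testis far above both at 447111 RPM. miR-202-5p of the gonads had 2 reads in sperm, 0 in uterus and 2606 in testis, and so was under the minimum here.

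The 3p arms miR-34b-3p and miR-34c-3p had few reads in uterus. miR-34b-3p had 783 reads in sperm, 11 in uterus and 79 in testis, a ratio of 1873 (1041 to 3767). miR-34c-3p had 551, 8 and 37, a ratio of 1812 (913 to 4218). miR-34b-5p, from the opposite arm, had 18, 111 and 1579 and a ratio of 4.27 (log2 2.09, 1.29 to 2.82), which turned to log2 −2.61 with all library reads as the denominator.

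Epithelial and sensory microRNAs are described next. The miR-183 cluster lies on the minus strand of chromosome 6 from 30165918 to 30169737, in no annotated gene of that strand. Its 3 kept arms passed the minimum through sperm alone, so each had to exceed 4-fold on the sperm side. miR-182-5p had 17319 reads in sperm, 44 in uterus and 4 in testis, a ratio of 10355 (7710 to 14257). miR-183-5p had 4800, 35 and 6, and miR-96-5p 117, 40 and 4. Sperm thus stood above both tissues for every arm of the cluster, while the ratio of miR-96-5p, 76.9 (53.3 to 113), was far below those of its neighbours.

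All 9 epithelial arms were at least 4-fold higher in sperm, beside 37.7% of all arms, and 3 of the 9 with all library reads as the denominator. Through sperm alone 2 of them, miR-141-3p and miR-205-5p, passed the minimum. The list took 10.2% of arm reads in sperm, 0.0718% in uterus and 0.252% in testis. miR-200c-3p, which holds epithelial cells in their state by acting on ZEB repressors, had 34575 reads in sperm, 1045 in uterus and 3 in testis. The ratio of sperm to uterus was 870.4 (818 to 927). miR-200a-3p, of the same family, had 1008, 3363 and 11 reads and the much lower ratio of 7.89. miR-375-3p, a microRNA of endocrine and epithelial cells, had 622, 338 and 387.

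The epithelial arms of miR-141 and miR-205 were named after their values were seen. miR-141-3p, cut beside miR-200c on chromosome 6, had 506 reads in sperm, 59 in uterus and 0 in testis, where 3 reads would be 16.02 RPM. miR-205-5p, of stratified epithelium, had 121, 16 and 0. Both were at least 4-fold higher in sperm under every scaling, with ratios of 226 (172 to 301) and 199 (118 to 359).

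Markers of other cell types that a sperm preparation could hold were split. The leukocyte list had 1509 reads in sperm (0.383% of arm reads), 2893 in uterus (0.0279%) and 46 in testis, and 2 of its 4 kept arms exceeded 4-fold on the sperm side, near the 37.7% of all arms. These were miR-146a-5p with 1026, 484 and 14 reads and miR-142a-3p, from a hairpin expressed in blood cells, with 127, 58 and 8. Of the 4, miR-142a-3p passed the minimum through sperm alone, so it had to exceed 4-fold. miR-142a-5p had 224, 1968 and 16 (log2 1.58) and miR-223-3p, of myeloid cells, 16, 262 and 2 (log2 0.68). The erythroid list had 0.0342% in sperm and 0.0158% in uterus, and its 3 kept arms differed in direction. miR-451a, the most abundant red cell microRNA, had 15 reads in sperm and 1107 in uterus (log2 −1.49). miR-3107-5p had 65 and 337 (log2 2.34), and miR-3107-3p 1 and 138 (log2 −2.39). Under the minimum, miR-144-5p had 54 and 43 reads, and miR-144-3p 0 and 17, a level in uterus too low to be seen at the depth of sperm. The endothelial list, the 2 arms of Mir126a, had 0.0421% in sperm and 0.00502% in uterus.

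Among the lists of other cell types the epithelial list was the largest in sperm, at 102430 RPM. The smooth muscle list followed at 46253 RPM, then striated muscle at 4771, leukocytes at 3827, stroma at 1050, endothelium at 421 and red cells at 342. The part of such cells in the arms that were higher in sperm was not tested. In bulk libraries, fewer cells of a type and less RNA per cell cannot be told apart. On the label check, the X-linked and miR-34 arms of male germ cells were present in sperm and the uterus library held miR-199a-3p and miR-1a-3p of mesenchyme and muscle. The gonadal miR-202-5p had 2 reads in the sperm library.

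Muscle and stromal microRNAs stood on the uterus side, with exceptions. The stromal list held 0.105% of arm reads in sperm and 4.42% in uterus, the striated muscle list 0.477% and 5.77%, and the smooth muscle list 4.63% and 1.40%. miR-199a-3p, a microRNA of mesenchymal cells, had 380 reads in sperm, 455707 in uterus and 682 in testis. The level in uterus was 45.6 times that in sperm (41.2 to 50.5). All 4 kept stromal arms were higher in uterus, 2 of them at least 4-fold, beside 20.6% of all arms. miR-1a-3p, a muscle microRNA, had 1765 reads in sperm, 597957 in uterus and 2199 in testis, 12.9 times as high in uterus (12.3 to 13.5).

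In sperm the miR-1a-3p count was unlike that of other arms in 1 respect. Of 6885 sperm reads that shared the arm's first 18 bases, 2956 (42.9%) departed from every hairpin by more than their last 2 bases, beside 0.139% in uterus, 0.433% in testis and a median of 0.272% over 84 arms in sperm. Among those arms miR-98-5p alone had a higher share, 47.6% in sperm and 30.7% in uterus. In sperm 2689 of the 2956 were copies of 1 sequence. No other genome was searched, and the origin of these reads was not determined. Whether full matches of the same origin are part of the sperm level of miR-1a-3p was not tested.

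miR-206-3p, a skeletal muscle arm, had 105 reads in sperm, 51 in uterus and 1 in testis, on the sperm side with a ratio of 54.2 (38.4 to 77.2). It passed the minimum through sperm alone, so it had to lie past 4-fold. miR-143-3p, of smooth muscle, had 17706 reads in sperm, 123105 in uterus and 894 in testis. Its log2 ratio was 1.92 (1.90 to 1.94) with reads of 20 to 24 nt but −1.12 with reads of 21 to 23 nt, as 93.3% of its sperm reads and 39.5% of its uterus reads were 20 nt long. miR-145a-5p, its cluster partner, had a log2 ratio of −0.51 and miR-143-5p, with 1 read in sperm and 1042 in uterus, one of −5.31 (−10.6 to −2.83).

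The largest ratios toward uterus came from arms with 1 read in sperm, so their size is known only within wide limits. miR-322-3p had 1 read in sperm, 6137 in uterus and 86 in testis, a log2 ratio of −7.87 (−13.17 to −5.39). miR-503-5p, from the neighbouring hairpin on chromosome X and linked to cell cycle arrest, had 1, 5356 and 219 and a log2 ratio of −7.67 (−12.97 to −5.19). miR-193a-3p had 1, 2955 and 4. All 3 upper limits lie beyond 4-fold. The opposite arm of the first hairpin, miR-322-5p, had 14 reads in sperm, 517 in uterus and 28 in testis. Its log2 ratio was only −0.49. Arms with 1 read also included miR-138-5p, miR-708-5p and miR-3095-3p. miR-185-5p had 14 reads in sperm and 7904 in uterus, and miR-181d-5p 35 and 18114.

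Of the 14 kept arms with 0 reads in sperm, named here after their values were seen, miR-298-5p had the most in uterus, 696 reads. It was at least 8.82-fold higher there, and it had 60 reads in testis. miR-320-3p, whose hairpin is cut without the Drosha enzyme, also named afterwards, had 124 reads in sperm and 62734 in uterus, 19.2 times as high in uterus (16.1 to 23.1).

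The let-7 family shared 1 seed and a direction but not a size. Its 9 arms from the 5p side were all higher in uterus on the main scale, from miR-98-5p at a log2 ratio of −0.16 (−0.56 to 0.21), whose interval spans 0, to let-7e-5p at −3.88 (−4.03 to −3.74). That is a 13.2-fold range within arms of 1 seed. let-7c-5p had 45263 reads in sperm, 3106537 in uterus and 14763 in testis, 2.61 times as high in uterus. let-7e-5p had 386, 149739 and 620, 14.7 times as high in uterus (13.3 to 16.3). The 3p arm let-7d-3p lay on the other side, at a log2 ratio of 1.41, which fell below 0 under each of the other 4 scalings.

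MicroRNAs of the Hox clusters were higher in sperm for 5 of 6 kept arms on the main scale, and 4 stood on the sperm side by 4-fold or more, beside 37.7% of all arms. With all library reads as the denominator none did, and 3 passed 4-fold toward uterus. The exception was miR-196b-3p, with 0 reads in sperm and 291 in uterus, at least 3.69-fold higher in uterus. miR-10a-5p, cut from the Hoxb cluster on chromosome 11 from 96317165 to 96317274, had 32715 reads in sperm, 49148 in uterus and 129 in testis. Its log2 ratio was 4.13 and turned to −0.57 with all library reads as the denominator. miR-10b-5p had 19591, 11758 and 407, a log2 ratio of 5.45 that stayed above 0 under every scaling. Testis was below sperm in RPM for both, at 689 and 2173.

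Widely expressed families differed in direction. In the miR-30 list 7 of 8 kept arms exceeded 4-fold on the sperm side (37.7% of all arms), with a median log2 ratio of 4.58 beside 0.74 over all arms. miR-30c-5p reached 5.21 and miR-30a-5p 3.24. With all library reads as the denominator, 1 of the 8 lay past 4-fold toward sperm and 1 toward uterus, and the list's median was −0.12. The miR-29 family, which acts on collagen messages, had 2 of 3 at least 4-fold higher in uterus (20.6% of all arms), led by miR-29a-3p with 764 reads in sperm and 145632 in uterus. The miR-181 family, of lymphocytes and neurons, had 4 of 7 on that side and a median of −2.30. Of these 4, miR-181a-2-3p and miR-181c-3p each had 1 read in sperm against 130 in uterus, and the median is their value.

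In the miR-148 family, which shares the seed CAGUGCA, miR-148a-3p was 119 times as high in sperm (114 to 124) with 11453 reads against 2540, whereas miR-152-3p had a log2 ratio of −1.38 with 408 against 27847. miR-21a-5p, a microRNA of proliferating and inflamed tissue, had 24288 reads in sperm, 102389 in uterus and 394 in testis. Its ratio of 6.24 (6.15 to 6.33), log2 2.64, turned to log2 −2.06 with all library reads as the denominator.

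The counts of the other lists stand beside 37.7% of all arms past 4-fold on the sperm side and 20.6% on the uterus side, and several are near these. The miR-17-92 list had 5 of 10 arms on the sperm side, 2 without let-7 in the total and 0 with all library reads, and 1 on the uterus side on the main scale. On the sperm side it was led by miR-20a-5p with 402 reads against 139 and miR-93-5p with 2465 against 1464. The imprinted Dlk1-Dio3 cluster of chromosome 12 gave 3 and 6 of 16, from miR-379-5p at a log2 ratio of 4.18 to miR-382-3p at −4.07. Its 6 arms on the uterus side had 0 or 1 read in sperm. In the miR-15 and miR-16 list, which brakes the cell cycle, the counts were 3 and 2 of 7. The miR-23, miR-27 and miR-24 list gave 2 and 1 of 7, the list of miR-99, miR-100 with miR-125 0 and 1 of 7, and the miR-26 list 1 and 0 of 2. miR-101, the Sfmbt2 cluster and miR-103 with miR-107 gave none on either side, of 2, 2 and 1 arms. The negative control list of brain, liver and pancreas microRNAs gave none of 2, and no arm of the miR-290 cluster of the early embryo reached 100 reads.

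**Figure D2:**
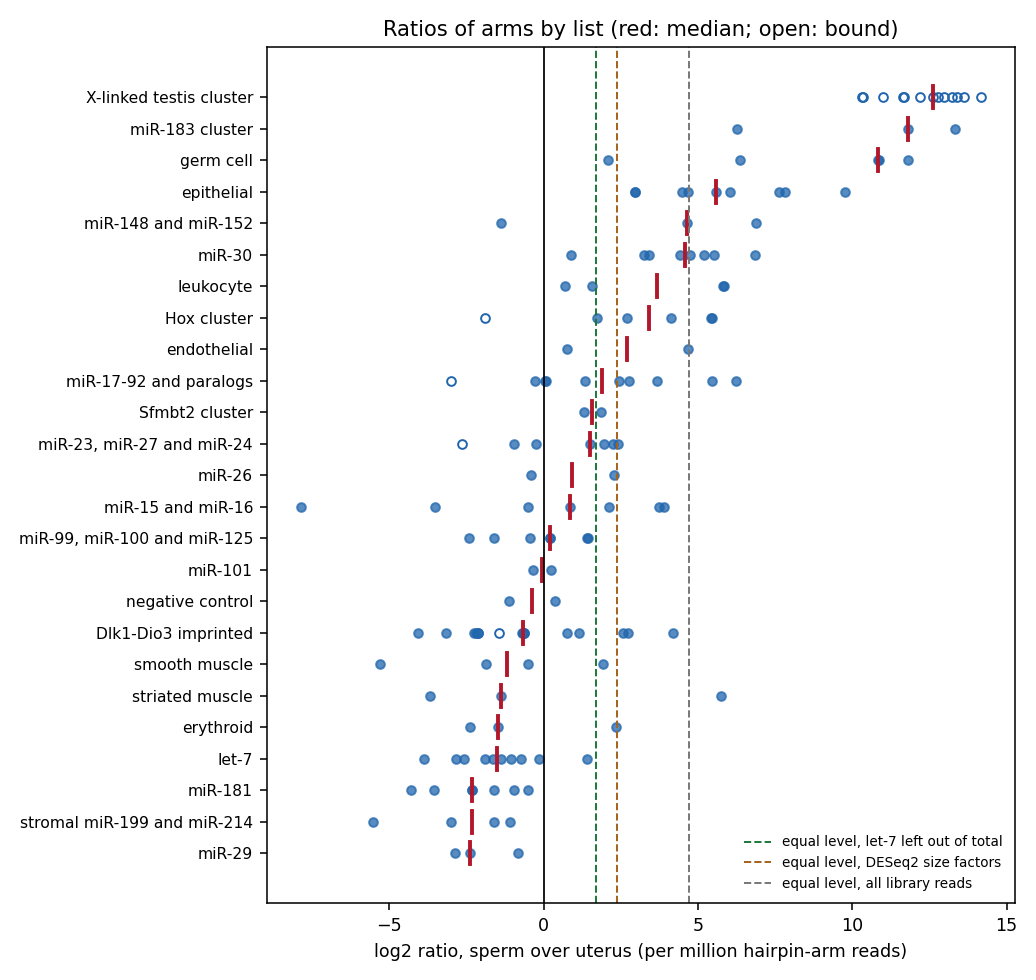
Log2 ratio of sperm over uterus (x) for every kept arm of each list with at least 2 kept arms (rows), with the list's median in red and bounds from 0 reads as open points. The solid line marks equal levels on the main scale and the dashed lines the value that counts as equal under 3 other totals; the X-linked arms and the upper germ cell arms lie to the right of every line.

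Of the 24 arms past 4-fold toward sperm under every scaling, the X-linked list gave 13 and the germ cell list 3, and 19 of the 24 had passed the minimum through sperm alone. The remaining ones were miR-182-5p, miR-183-5p, miR-200c-3p, miR-141-3p, miR-205-5p, miR-148a-3p, miR-30e-3p and miR-425-5p. In testis, 7 of the 24 stood higher in RPM than in sperm and 5 had fewer than 10 reads. miR-425-5p, on no list and named after its values were seen, had 2072 reads in sperm, 126 in uterus and 61 in testis, a ratio of 433 (361 to 522). Its hairpin lies in an exon of the noncoding gene 4833445I07Rik on chromosome 9, from 108568777 to 108568861.

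Neighbouring hairpins often differed in their ratios, and their span needs no common scale. Hairpins on 1 strand within 10 kb of the next were joined, and 39 such clusters had at least 2 leading arms kept. In 27 of them the leading arms spanned 4-fold or more, and in 12 they had both signs on the main scale. The median span was 2.59 on the log2 scale. Arms cut from more than 1 locus count in each of their clusters, as for miR-1a with miR-133a and miR-181a with miR-181b. Over arms not shared with other loci, 21 clusters had at least 2 such arms, and 18 of these spanned 4-fold or more. The X-linked cluster counts among the 27 and the 18. Its 9 leading arms had 0 reads in uterus, so its 14.5-fold span lies between bounds and reflects sperm reads alone. Other arms with 0 reads in 1 library also entered as bounds. Of all 223 arms, 58.3% were at least 4-fold apart between sperm and uterus, and spans of unrelated arms were not computed.

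The hairpins of miR-191 and miR-425 lie within 1 cluster on chromosome 9 and had log2 ratios of 2.85 and 8.76, a 60.1-fold span. Among miR-25-3p, miR-93-5p and miR-106b-5p, in 1 cluster of chromosome 5 within the gene Mcm7, the values were −0.29, 5.47 and 0.08. In the cluster of miR-99b, let-7e and miR-125a on chromosome 17 they were 1.43, −3.88 and −0.45. At the other end, miR-221-3p and miR-222-3p on chromosome X stood at −2.39 and −2.12, and miR-15b-5p and miR-16-5p at 3.89 and 3.74, although miR-16 reads can also come from another locus.

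Arms with a common seed also spread widely. Among the 192 arms with a RefSeq sequence, a seed was shared by at least 2 in 29 cases, with 81 arms, and 19 of these sets spanned 4-fold or more. Here too, spans of unrelated arms were not computed. In 8 sets every arm was at least 4-fold higher in sperm, among them AAUACUG of miR-200c, miR-200b and miR-429, and ACCCUGU of miR-10a and miR-10b. For the sets of miR-743, of miR-465 and of miR-34b-3p with miR-34c-3p this was fixed, as all their arms passed the minimum through sperm alone. So did miR-141-3p in the set it forms with miR-200a-3p. Of all arms, 37.7% lay past 4-fold toward sperm and 20.6% toward uterus. In 1 set, GCUACAU of miR-221 and miR-222, every arm was at least 4-fold higher in uterus. The sets AGCAGCA (miR-15, miR-16 and miR-497a) and AGGAGCU (miR-28a-5p and miR-708-5p) held arms on both sides. The miR-193 pair, with the seed ACUGGCC, had log2 ratios of −6.81 and −0.62, from 1 and 6 reads in sperm. Summed over its arms, the let-7 seed GAGGUAG took 283073 RPM in sperm and 778887 in uterus.

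The hairpins were also placed against other genes of the annotation. Of all 223 arms, 34.5% came from introns of another gene on the same strand, 23.3% overlapped an annotated exon and 33.6% lay in no such gene, with 19 arms whose copies differed. On the sperm side the shares were 33.3%, 17.9% and 40.5% of 84, and on the uterus side 30.4%, 21.7% and 41.3% of 46. The first base of the leading read differed more. It was U in 45.7% of all arms, in 59.5% of the 84 and in 26.1% of the 46, and A in 30.04%, 19.05% and 47.8%. Arms from the 5p side made up 44 of the 84 and 23 of the 46.

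Which arm of a hairpin was used needs no scaling between libraries, and it was mostly the same. Of 85 hairpins with at least 100 reads in each library, 83 had the same leading arm, and the median difference in the 5p share was 0.834 percentage points. It was under 5 points in 63 hairpins and at least 20 points in 6.

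Mir34b reversed. Its 5p arm had 18 reads and its 3p arm 783 in sperm, a 5p share of 2.25% (1.34 to 3.53%). In uterus the counts were 111 and 11, a share of 91.0% (84.4 to 95.4%), and in testis 1579 and 79, a share of 95.2% (94.1 to 96.2%). Sperm thus stood apart from both tissues. Against testis its 5p level was the lower (45.7 against 8432 RPM) and its 3p level the higher (1986 against 422). Mir126a, of endothelium, was the other, with a 5p share of 14.5% of 166 reads in sperm (9.49 to 20.7%) and 72.0% of 521 in uterus (67.9 to 75.8%).

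Other hairpins moved without changing the leading arm. The 5p share of Mir30c was 97.0% in sperm and 60.1% in uterus, from 2313 and 72 reads against 1648 and 1094. For Mir425 it was 99.6% and 67.4%, for Mir30e 72.3% and 93.4%, and for Mir142, of blood cells, 63.8% and 97.1%. Smaller differences toward the 5p arm in sperm were those of Mir221 (21.7% against 7.52%), Mir664, Mir151 and Mir872. Mir423 (83.9% against 98.8%) and Mir28a (27.5% against 41.2%) differed the other way. The miR-30 hairpins thus differed in opposite directions, toward 5p in sperm for Mir30c and toward 3p for Mir30e. Arm use counted full matches only. Reads of miR-30e-3p whose last bases differ from the hairpin were 14.5% in sperm and 60.7% in uterus. Leaving them out lowered the 3p share of Mir30e more in uterus than in sperm, which widened its difference.

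**Figure D3:**
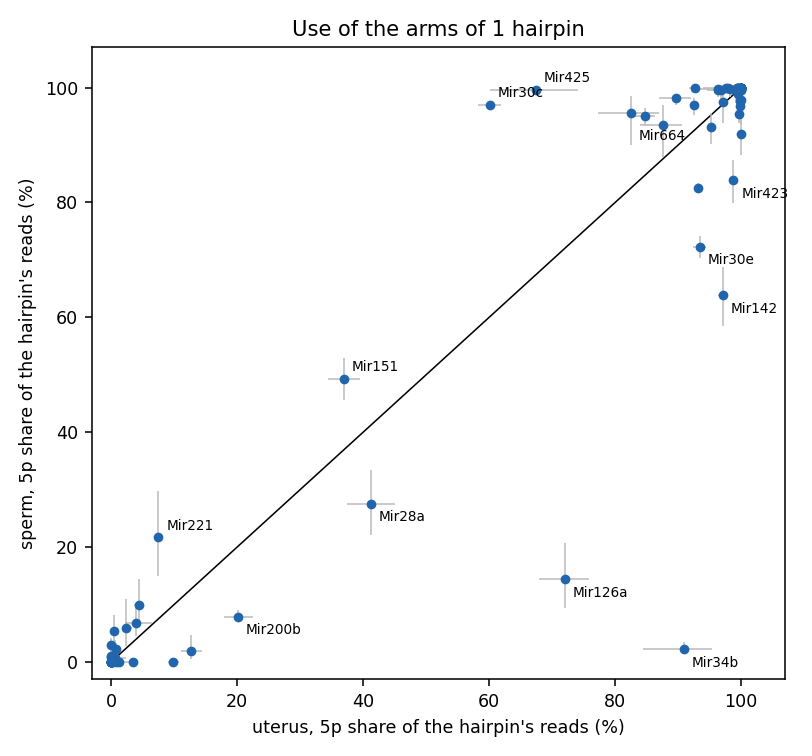
Share of a hairpin's reads from its 5p arm, in percent, in uterus (x) and sperm (y) for 85 hairpins, with exact 95% intervals as bars. Most points sit in the corners on the line of equal shares; Mir34b, at 2.25% in sperm and 91.0% in uterus, lies farthest from it.

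Lengths of the same arm differed in both directions. Over all arm reads 22 nt was the commonest length, with 45.9% in sperm and 73.2% in uterus, and 23 nt held 27.6% and 12.1%. Arm by arm, among the 90 with at least 100 reads in each library, the mean length was greater in sperm for 40 and in uterus for 50, with a median difference of −0.08 nt. The leading read was identical in 60, and the most frequent start in 87 of the 90. The 3 exceptions, miR-101a-3p, miR-101b-3p and miR-126a-3p, had starts 1 base apart.

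Arms longer in sperm were miR-125a-5p (22.6 nt against 21.6, from 200 and 7164 reads), miR-92a-3p, miR-1981-5p, miR-378a-3p and miR-103-3p. miR-378a-3p, a microRNA of metabolic tissues, was 22 nt in 91.1% of its sperm reads and 21 nt in 58.1% of its uterus reads. Shorter in sperm were miR-191-5p (21.7 against 22.97 nt), miR-26a-5p, miR-130a-3p, miR-192-5p and miR-221-3p. miR-26a-5p was 20 nt in 45.8% of its sperm reads and in 5.796% of its uterus reads. miR-30d-5p was mostly 23 nt in sperm (62.5%) and 24 nt in uterus (66.2%).

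**Figure D4:**
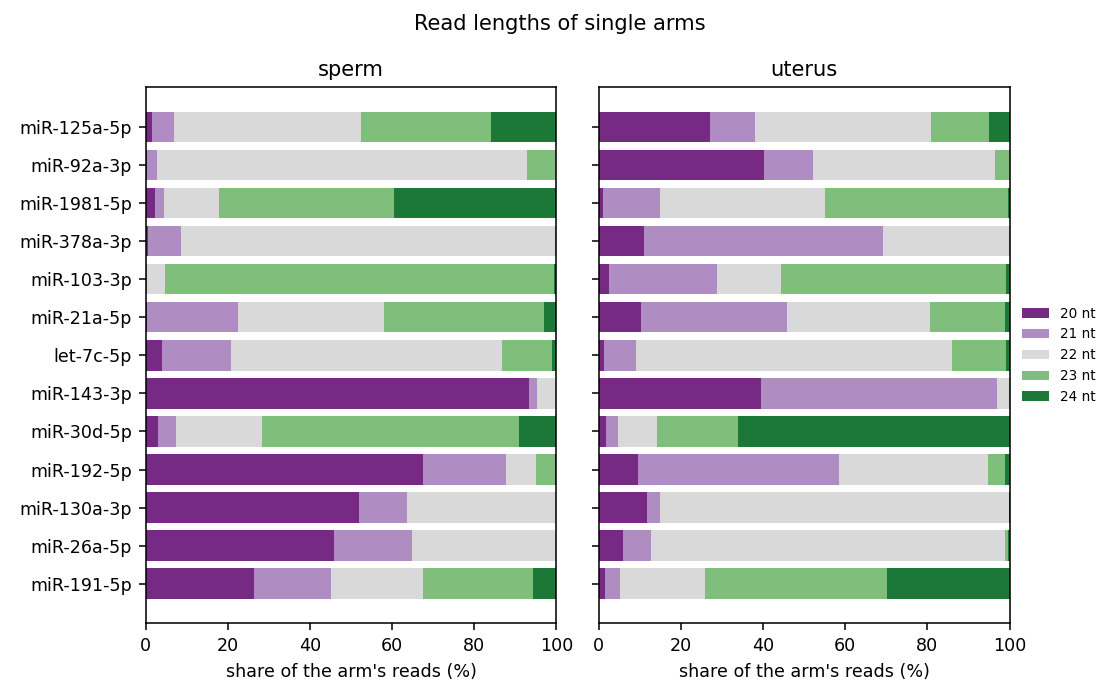
Share of each arm's reads (x, percent) at 20 to 24 nt in sperm and uterus for 13 arms (rows), ordered from the arm with the largest excess length in sperm to the one with the largest in uterus, with 4 abundant arms between. miR-143-3p is 20 nt long in 93.3% of its sperm reads, and miR-26a-5p and miR-191-5p hold more 20 nt reads in sperm than in uterus.

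Untemplated 3′ ends were counted as reads whose last 1 or 2 bases alone differ from the hairpin, as a share of these and the full matches. The share was 12.8% of arm reads in sperm (12.7 to 12.9%), 14.5% in uterus and 10.7% in testis. A single added A made up 4.40% in sperm and 8.27% in uterus, and a single added U 5.39% and 2.62%. These pooled shares weigh abundant arms most. Over 90 arms the median share of a single U was 3.73% in sperm and 5.07% in uterus, with 42 arms higher in sperm, and that of a single A 4.37% and 5.73%, with 32. Of the 90 arms, 35 had a higher share in sperm and 55 in uterus, with intervals apart in 18 and 43.

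Single arms reached large differences. let-7i-5p ended in untemplated bases in 69.5% of its sperm reads and 38.9% of its uterus reads. For miR-101a-3p the shares were 40.8% and 12.05%, for miR-143-3p 43.1% and 22.5%, and for miR-148b-3p 39.4% and 23.3%. miR-1a-3p had 55.2% and 2.20%, of which 34.4% and 0.364% were a single C, the ending that other arms rarely had (a median of 0.0562% in sperm). Its odd sperm reads, described above, apply here as well.

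In the other direction, miR-30e-3p had 14.5% in sperm and 60.7% in uterus, miR-26a-5p 12.1% and 55.4%, miR-744-5p 7.74% and 47.3%, miR-126a-3p 7.19% and 41.1%, and miR-30a-3p 15.8% and 45.3%. Counting these reads lowered the log2 ratio of miR-26a-5p from 2.27 to 1.32 and that of miR-126a-3p from 4.68 to 4.05, and raised that of miR-1a-3p from −3.69 to −2.53.

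**Figure D5:**
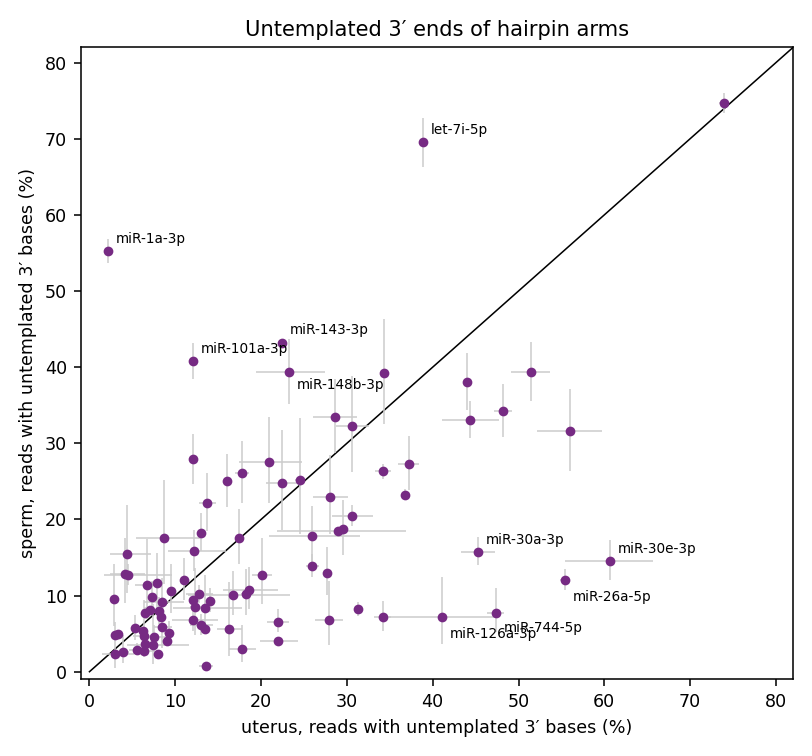
Share of reads with 1 or 2 untemplated 3′ bases, in percent, in uterus (x) and sperm (y) for 90 arms, with exact 95% intervals as bars and the line of equal shares. miR-1a-3p stands at 55.2% in sperm and 2.20% in uterus, and more arms lie below the line than above it.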

How the data were processed

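Small RNA libraries of mature sperm, adult uterus and adult testis, 1 each, were used; the labels' source field gave the groups. Adapters were ligated to both ends, followed by reverse transcription and PCR, per the labels' protocols. The deposited tables list each read sequence with its count, a whole number that the values show as not normalized. The build mm9 comes from the submitters' processing notes; the sources used here name no trimming, size selection or tool. The tables hold reads of 18 to 44 nt.

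Reads of 20 to 24 nt were matched exactly and in sense to 1174 hairpins of GENCODE M21 (GRCm38), whose coordinates are given, not converted to mm9. A read belonged to the 5p or 3p arm by its midpoint. Arms sharing at least 50% of the smaller arm's reads were joined, and the 2 sperm, 17 uterus and 9 testis reads left over went to the group with most unambiguous reads. Arms with at least 100 reads in sperm or uterus were kept and scaled per 1000000 arm reads. The threshold was 4-fold. Against 0 reads a ratio is a bound with 3 counts in place of 0. Levels have exact Poisson, ratios conditional exact binomial and shares Clopper-Pearson 95% intervals. Arm use needed 100 reads per hairpin, and lengths and 3′ ends 100 reads per arm, in each library.

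The members and the 27 lists of arms were chosen with earlier results of these data known. In the leukocyte list the symbol of miR-146a was changed to the annotation's after the tables were seen. Named arms are the 10 most abundant of each library, the 10 largest ratios each way, up to 4 members with most reads per list, the 6 hairpins with the largest change in 5p share each way, and the 5 arms with the largest change in length and in untemplated share each way.

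Alternatives were other totals, TMM factors (edgeR 4.0.16) and DESeq2 1.42.0 size factors on the arms, other lengths, minimums and match rules; an equal level minimum (254 reads per 1000000 in either library) was chosen after seeing the data. On simulated counts of 846 arms with 8-fold changes, the 4-fold rule called 25 of 28 raised (89.3%) and 36 of 43 lowered arms (83.7%) with enough reads for sperm and uterus, and 6 of 227 unchanged ones. Both simulated libraries started from the mean of the sperm and uterus shares, and reads with 1 or 2 untemplated last bases were counted too. The unlike let-7 content of the real libraries was thus absent, so these rates do not measure the error of the real calls. Scripts ran under R 4.3.3 and Python 3.11.15 (matplotlib 3.10.9, pandas 2.3.3, scipy 1.17.1, numpy 2.4.6).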

Additional observations from a re-analysis of the deposited data

How the results depend on the processing

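The total used for scaling decided most counts. Leaving let-7 out gave 52 arms past 4-fold on the sperm side and 89 on the uterus side, all library reads gave 24 and 156, TMM factors 44 and 103, and DESeq2 size factors 44 and 106, where the main counts were 84 and 46. Of the 223 arms, 127 had a ratio above 1, against 38 with all library reads, 79 with TMM and 75 with DESeq2 factors. Of the lists, 15 had a median above 0, against 4, 9 and 9. With all library reads the medians turned for leukocyte (−1.01), endothelial (−1.99), Hox cluster (−1.29), miR-30 (−0.12) and miR-148 with miR-152 (−0.061). Of the arms named by rule and past 4-fold, that total turned miR-10a-5p (−0.57), miR-126a-3p (−0.023), miR-148b-3p (−0.061), miR-15b-5p (−0.81), miR-16-5p (−0.96), miR-200a-3p (−1.72), miR-21a-5p (−2.06), miR-23a-3p (−2.46), miR-24-3p (−2.29), miR-26a-5p (−2.43), miR-30a-5p (−1.46), miR-30d-5p (−1.28), miR-30e-5p (−0.29), miR-3107-5p (−2.36), miR-379-5p (−0.52), miR-434-3p (−1.95) and miR-541-5p (−2.14). DESeq2 factors turned miR-23a-3p (−0.15), miR-26a-5p (−0.13) and miR-3107-5p (−0.052). A minimum of 500 reads left 43 and 29 arms, 70 with a ratio above 1, and 17 of the 27 clusters that span 4-fold. With 1 read as the minimum there were 354 arms on the sperm side, 464 with a ratio above 1 and 23 lists with a median above 0, and the miR-29 median turned to 1.42. These counts move with the minimum, and unequally. With 1 read as the minimum the uterus side stayed at 46 arms. Equal reads in both libraries give a ratio of 26.3, so arms with few reads in both lie mostly toward sperm. With an equal level minimum, chosen after seeing the data, 65 arms were on the sperm side and 16 on the uterus side, of 122, and 15 clusters spanned 4-fold. Of hairpins, 6 differed by 20 points or more in the 5p share, against 10 when the last bases may differ and 2 with at least 500 reads. Arms with longer reads in sperm fell from 40 to 15 at that minimum, of 40 arms. Which reads were counted set the sign of some arms. miR-181a-5p moved from −0.95 to 0.52 with 21 to 23 nt, miR-143-3p from 1.92 to −1.12, and miR-101b-3p from 0.25 to −1.69 with the leading start only. Depth limits mainly the uterus side, since 3 reads in sperm are 7.61 RPM. No paired analysis was possible because each group had 1 library.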
